A study of Homo sapiens with 8 samples.

Results

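The genes described here are 10 heat shock and chaperone genes: HSPA1A, HSPA1B, HSPA5, HSPA8, HSP90AA1, HSP90AB1, HSPH1, DNAJB1, HSPD1 and HSPE1. They were taken by name from the 19974 protein-coding genes that RefSeq places on chromosomes 1 to 22 and X of GRCh38.p14. No measured value entered the choice, but earlier results of these data were known when it was made. Every peak inside each gene or within 5 kb of it was collected from 8 deposited ATAC-seq peak lists. ATAC-seq marks accessible DNA by the insertion of sequencing adapters with the transposase Tn5. The cells were hTERT RPE-1, a telomerase-immortalised human line from retinal pigment epithelium. Both groups shared the genotype Plk1-/- EGFP-Plk1as: the endogenous mitotic kinase Plk1 was absent and a GFP-tagged analog-sensitive form took its place. Both groups were also held in mitosis with 5 µM STLC, a kinesin-5 inhibitor, for 16 h and collected by shake-off. The 4 control libraries then received 0.5% DMSO for 2 h, and the 4 treated libraries received 10 µM 3MB-PP1, the bulky inhibitor of the analog-sensitive kinase, both with STLC still present. More than 95% of cells were in mitosis, and no library of interphase cells, of cells without STLC or of cells without the Plk1as allele was analysed here. The question was whether Plk1 activity bears on the accessibility of mitotic chromosomes, here at promoters often discussed as bookmarked.

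Heat shock proteins are chaperones that fold, hold or disassemble other proteins. The cytosolic Hsp70 proteins work in a cycle with J-domain co-chaperones and nucleotide exchange factors, Hsp90 acts on partly folded clients such as kinases, and separate Hsp70 and Hsp60 proteins serve the endoplasmic reticulum and the mitochondria. After heat or proteotoxic stress the factor HSF1 binds heat shock elements, which are repeats of the unit GAA and its inverse TTC, and activates the inducible genes. Mitotic bookmarking is the name for marks or bound factors that stay at some promoters while chromosomes condense, and the inducible Hsp70 promoter, reported to be held by HSF2 in mitotic cells, is a much-cited example.

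The promoters are shown first because the results turn on them. RefSeq's promoter table for GRCh38.p14 held all 10 genes with 16 listed transcription starts, of which the first listed was used for each gene unless another is named. Each run below is the 250 bases before a start, read 5′ to 3′ on the gene's strand. Capitals mark matches to the heat shock elements searched, or, in HSPA5, to the endoplasmic reticulum stress element. HSPA1A and HSPA1B are shown as near-identical copies whose peaks ranked far apart. HSPA8 and the second start of HSP90AA1 carry the longest heat shock element. HSPA5 is one of the genes whose peak width separated the groups, and DNAJB1 is shown at its first start, where the peak rank separated them, and at its second, where the elements lie.
HSPA1A, chr6:31815293-31815542, plus strand: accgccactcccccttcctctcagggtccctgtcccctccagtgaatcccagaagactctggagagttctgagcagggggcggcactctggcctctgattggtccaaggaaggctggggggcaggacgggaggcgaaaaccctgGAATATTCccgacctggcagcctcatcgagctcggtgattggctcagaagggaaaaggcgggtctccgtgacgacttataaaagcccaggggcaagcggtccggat
HSPA1B, chr6:31827488-31827737, plus strand: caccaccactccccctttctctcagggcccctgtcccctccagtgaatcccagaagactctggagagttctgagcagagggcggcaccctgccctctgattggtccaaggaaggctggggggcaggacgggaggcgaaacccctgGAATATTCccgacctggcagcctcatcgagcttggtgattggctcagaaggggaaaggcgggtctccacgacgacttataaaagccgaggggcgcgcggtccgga
HSPA8, chr11:123062137-123062386, minus strand: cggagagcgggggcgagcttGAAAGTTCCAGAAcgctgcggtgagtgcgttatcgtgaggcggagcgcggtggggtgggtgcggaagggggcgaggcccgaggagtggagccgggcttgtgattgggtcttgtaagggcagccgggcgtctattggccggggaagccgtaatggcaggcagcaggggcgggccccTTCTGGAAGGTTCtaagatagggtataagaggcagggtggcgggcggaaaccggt
HSP90AA1 second start, chr14:102087045-102087294, minus strand: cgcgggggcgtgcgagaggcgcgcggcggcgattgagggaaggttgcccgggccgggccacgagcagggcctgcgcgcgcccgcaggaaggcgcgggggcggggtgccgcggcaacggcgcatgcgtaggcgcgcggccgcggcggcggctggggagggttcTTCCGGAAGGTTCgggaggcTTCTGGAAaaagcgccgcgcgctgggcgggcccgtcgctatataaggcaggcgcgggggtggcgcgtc
DNAJB1 first start, chr19:14529272-14529521, minus strand: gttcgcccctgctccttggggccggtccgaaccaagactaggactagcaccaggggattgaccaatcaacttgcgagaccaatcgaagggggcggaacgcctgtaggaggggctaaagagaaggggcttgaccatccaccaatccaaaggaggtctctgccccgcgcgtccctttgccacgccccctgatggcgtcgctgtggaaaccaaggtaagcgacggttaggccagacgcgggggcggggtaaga
DNAJB1 second start, chr19:14518398-14518647, minus strand: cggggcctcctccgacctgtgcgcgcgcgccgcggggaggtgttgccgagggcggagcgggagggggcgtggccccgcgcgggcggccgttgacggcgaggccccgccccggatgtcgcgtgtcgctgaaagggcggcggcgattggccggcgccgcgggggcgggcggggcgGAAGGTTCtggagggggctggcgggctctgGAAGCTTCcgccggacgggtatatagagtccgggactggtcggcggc
HSPA5, chr9:125241344-125241593, minus strand: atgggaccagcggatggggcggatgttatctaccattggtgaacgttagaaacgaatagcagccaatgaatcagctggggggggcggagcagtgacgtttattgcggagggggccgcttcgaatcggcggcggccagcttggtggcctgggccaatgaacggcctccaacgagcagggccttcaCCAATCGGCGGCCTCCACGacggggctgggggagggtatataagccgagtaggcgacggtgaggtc

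Motifs were searched on both strands in the 300 bases from 250 before to 50 after each start, with the start as position 1 and the base before it as -1. The longest heat shock element was 3 alternating units of GAA and TTC, each separated by any 2 bases. It was found at 4 of the 16 member starts, against 0.402% of 22132 listed starts of all protein-coding genes. HSPA8 held it from -230 to -218 and from -55 to -43, and the second start of HSP90AA1 held it from -88 to -76. The third start of HSP90AB1 held it as TTCTGGAAGATTC from -165 to -153 and as TTCTGGAAGCTTC from -112 to -100. The second start of HSPD1 held an overlapping pair, TTCTGGAAAGTTC from -245 to -233 and GAAAGTTCTGGAA from -240 to -228. The 2-unit form GAANNTTC, which overlaps the longest form where both occur, was found at 8 of 16 member starts in 7 genes, against 5.68% of all starts. The inverse 2-unit form TTCNNGAA was found at 4 of 16 member starts, against 6.73%.

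In HSPA1A and HSPA1B the match was a single GAATATTC, from -106 to -99 and from -105 to -98, followed by TATAAA at -30 to -25 and -29 to -24. TATAAA was found at 2 of 16 member starts and 9.46% of all starts, and CCAAT at 8 of 16 and 34.6%. The second start of DNAJB1 held GAAGGTTC from -77 to -70 and GAAGCTTC from -47 to -40, while its first start held no heat shock element in this window. The endoplasmic reticulum stress element, CCAAT and CCACG separated by any 9 bases, was found at the HSPA5 start alone among the member starts, from -66 to -48, and at 0.104% of all starts. These matches describe sequence and were not tested as binding sites.

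Each library had its own list of peaks. The DMSO lists held 150577 to 199042 peaks on the chromosomes analysed and the 3MB-PP1 lists 170682 to 252752. Read totals are not in the lists, so the depth is unknown and no interval that needs depth is given. The least certain peak in any list had q = 0.10, and the smallest peak was 90 to 135 bp wide, depending on the list. Over the 9132 protein-coding genes with a promoter peak in all 8 lists, the median width of that peak was 1358 to 1526 bp in the DMSO lists and 1202 to 1286 bp in the 3MB-PP1 lists. Pileup is the coverage signal that the lists give for each peak. Its median over those peaks was 31.5 to 54.8 in the DMSO lists and 23.6 to 30.8 in the 3MB-PP1 lists. Its scaling is not given, so how far this reflects depth is unknown. Every difference in width below stands beside these whole-list differences, whose part in the members' values was not tested. Replicates 1 and 3 also differed from replicates 2 and 4 in both groups, with 0.868% to 0.933% against 0.595% to 0.694% of peaks on chromosome X. Values are therefore given within each of these sets where a member's promoter peak width or pileup rank separated the groups. Of the markers listed for the line, the epithelial keratin gene KRT8 had a promoter peak in all 8 lists, as did CDH2 and VIM, which are also used as mesenchymal markers. Of 5 pigment epithelium markers with a listed start only MITF had one in all 8 and RPE65, the retinoid isomerase, had none. Among markers of other cell types, PTPRC, ALB and MYH6 had none and NEUROD1 had one in 1 DMSO list.

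All 10 heat shock genes had a peak at the promoter, within 500 bp of the start, in every one of the 8 lists, against 57.8% of the 15812 protein-coding genes with a listed start. With peaks limited to a -log10 q of at least 2, the count was 10 of 10 against 48.1% of genes. At a -log10 q of at least 5 it was 8 of 10 against 29.9%, and the genes below that line were HSPA1A, which passed in 6 lists, and HSP90AB1, which passed in 7. HSPD1 and HSPE1 point away from each other from starts 105 bp apart and share 1 peak, so the 10 genes have 9 separate promoter peaks. No promoter peak was gained or lost between DMSO and 3MB-PP1. Presence in a list does not measure how accessible a promoter was, since every list stops at its own threshold.

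Most of these promoters face another gene. HSPA1A starts 260 bp from the divergent Hsp70 gene HSPA1L, HSP90AA1 starts 148 bp from WDR20, and the first start of DNAJB1 lies 289 bp from TECR. HSPA5 and HSPH1 lie 313 bp and 272 bp from non-coding genes, HSPA5-DT and LOC105370148, and HSPA8 lies 526 bp from LOC124902775. Only HSPA1B and HSP90AB1 had no start of another gene under the promoter peak. For the divergent pairs, peak values cannot be assigned to 1 of the 2 genes.

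**Figure D1:**
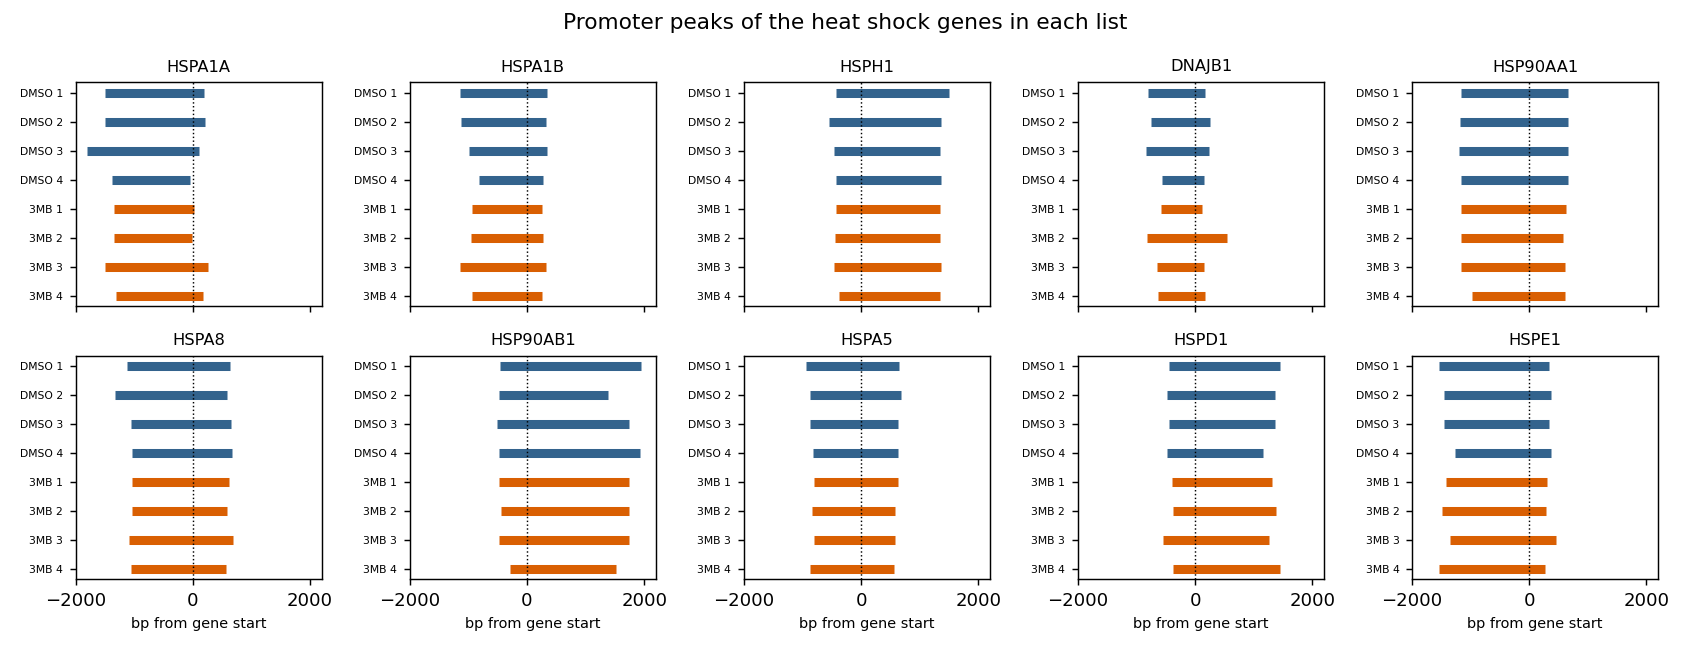
Extent of the peak at the first-listed start of each gene, in bp from the start along the gene's strand (negative values are upstream), with 1 bar for each of the 4 DMSO lists (blue) and 4 3MB-PP1 lists (orange). Every gene had a bar in all 8 lists, and HSPA1A is the gene whose peaks lay almost wholly upstream of the start.

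The inducible Hsp70 pair gave the widest contrast among the members. HSPA1A and HSPA1B encode the stress-induced cytosolic Hsp70, and their promoters were identical at 277 of 301 aligned positions (92.0%). Their peaks were ranked by pileup, the fragment coverage that the lists give for each peak, as the percentile among the promoter peaks of the 9132 genes above within the same list. HSPA1B stood at percentiles 94.9, 96.5, 96.8 and 96.8 in DMSO replicates 1 to 4 and at 95.9, 95.4, 92.0 and 94.2 in 3MB-PP1 replicates 1 to 4. HSPA1A stood at 31.1, 26.2, 28.2 and 25.9 in DMSO and at 31.7, 30.0, 30.1 and 17.0 in 3MB-PP1. HSPA1B was therefore near the top of the promoter peaks in every list and HSPA1A well below the middle of them, and neither gene separated the treatments.

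The peaks of the pair also lay differently. The HSPA1B peak ran from 818 to 1149 bp upstream to 260 to 337 bp downstream of its start in all 8 lists. The HSPA1A peak reached 1315 to 1808 bp upstream, across the HSPA1L start, and its downstream end ranged from -47 to 256 bp. In DMSO replicate 4 and 3MB-PP1 replicate 2 it stopped before the HSPA1A start, at -47 and -22 bp. Because the copies are near-identical and the treatment of reads that match both is not given in the sources used here, the values of HSPA1A and HSPA1B are uncertain as levels of either gene.

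Width at the pair was 1659 ± 239 bp in DMSO and 1484 ± 195 bp in 3MB-PP1 for HSPA1A (SD, n = 4 per group), a difference that an exact permutation test put at p = 0.371. For HSPA1B it was 1337 ± 182 bp and 1275 ± 133 bp (exact permutation p = 0.629). The groups overlapped for both genes.

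Across the 10 genes, the promoter peak was narrower on average in 3MB-PP1 in 10 of 10, but the groups separated fully in only 2, HSPA5 and HSP90AA1. Of all 9132 genes tested, 14.0% had a width lower in 3MB-PP1 without overlap and 0.0986% a width higher. The members' median log2 ratio of mean width was -0.08, against -0.18 over all genes. All 10 members had a ratio above the median of all genes, with HSPD1 and HSPE1, which share 1 peak, counted as 2. From 52.9% (HSPA1A) to 87.3% (HSPD1 and HSPE1) of genes had a lower ratio. Most member peaks ranked high by pileup, and genes of like pileup were not compared, so no trait of heat shock genes is read from this. The smallest adjusted p that any gene reached was 0.203, so no gene passed 0.05 after Benjamini-Hochberg adjustment of the exact permutation test, in which 4 against 4 libraries cannot go below an unadjusted p of 0.0286.

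**Figure D2:**
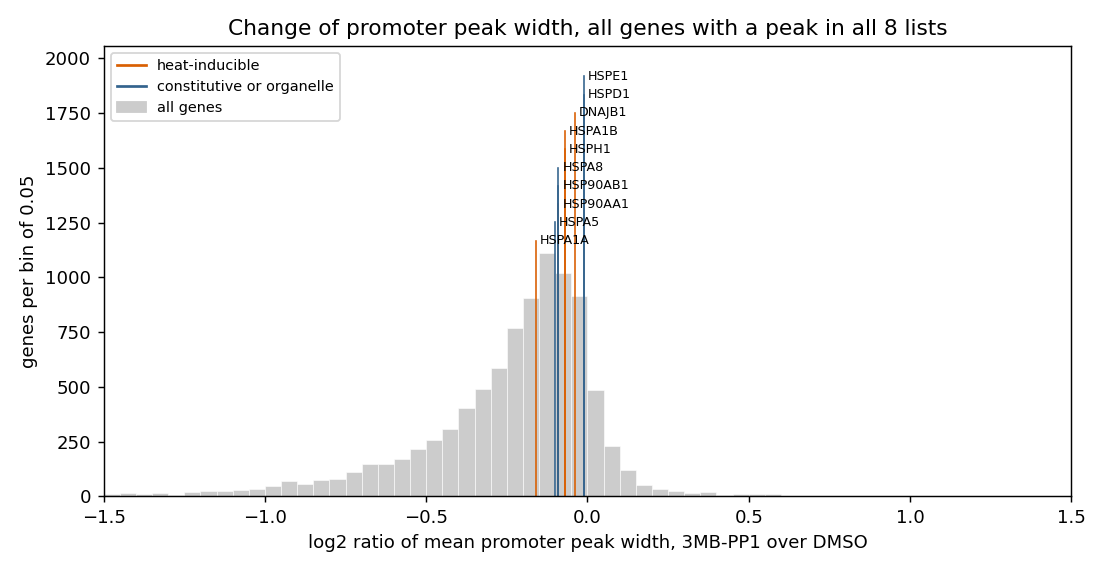
Histogram of the log2 ratio of mean promoter peak width, 3MB-PP1 over DMSO, for the genes with a promoter peak in all 8 lists (grey, genes per bin of 0.05), with a vertical line for each heat-inducible (orange) and each constitutive or organelle member (blue). The lines lie between -0.16 (HSPA1A) and -0.01 (HSPD1 and HSPE1), to the right of the median of all genes at -0.18. The line heights only separate the labels.

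HSPA5 encodes BiP, the Hsp70 of the endoplasmic reticulum. Its promoter peak was 1591, 1562, 1497 and 1449 bp wide in DMSO replicates 1 to 4 and 1440, 1429, 1372 and 1438 bp wide in 3MB-PP1 replicates 1 to 4. All 4 treated widths lay below all 4 control widths, the nearest pair being 1440 and 1449 bp. The means were 1525 ± 64.0 and 1420 ± 32.2 bp (SD, n = 4 each), a difference of -105 bp (exact permutation p = 0.0286, adjusted p = 0.203). The difference was -138 bp over replicates 1 and 3 and -72 bp over replicates 2 and 4. With the replicate number as a block the sign-flip test gave an exact p = 0.125, the smallest it allows. The peak was narrower in 3MB-PP1 in every same-numbered pair, as in 35.2% of all genes tested.

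The pileup rank of the HSPA5 peak also had a lower mean in 3MB-PP1, but the groups overlapped. It was 85.5, 82.4, 83.4 and 83.8 in DMSO and 74.4, 75.1, 82.8 and 65.3 in 3MB-PP1. Only 3MB-PP1 replicate 3 reached the control range. The difference was -9.38 percentile points, -5.84 over replicates 1 and 3 and -12.9 over replicates 2 and 4 (exact permutation p = 0.0571, adjusted p = 0.320). Without 3MB-PP1 replicate 3 it was -12.2 points (exact permutation p = 0.0286). The groups cannot overlap in that set, because the only overlapping library was left out, so it adds no support. In the same set 8.79% of all genes ranked lower without overlap. HSPA5 was lower in 3MB-PP1 in 4 of 4 same-numbered pairs.

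HSP90AA1 encodes the stress-inducible Hsp90 alpha. At its first-listed start, shared with WDR20, the peak was 1820, 1830, 1865 and 1826 bp wide in DMSO and 1798, 1749, 1775 and 1589 bp wide in 3MB-PP1. The control widths lay close together and every treated width was below them, with 3MB-PP1 replicate 4 the narrowest. The means were 1835 ± 20.3 and 1728 ± 94.6 bp (SD, n = 4 each), a difference of -108 bp (exact permutation p = 0.0286, adjusted p = 0.203). Without 3MB-PP1 replicate 4 it was -61.2 bp (exact permutation p = 0.0286). It was -56 bp over replicates 1 and 3 and -159 bp over replicates 2 and 4, and the exact p with the replicate block was 0.125. At the second start, where the heat shock elements printed above lie, the width was 1232 ± 76.9 bp in DMSO and 1224 ± 99.5 bp in 3MB-PP1 (SD, n = 4 each, exact permutation p = 0.943). That second peak stood at percentile 92.1 ± 1.23 in DMSO and 90.6 ± 2.60 in 3MB-PP1 (exact permutation p = 0.400).

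A linear model in limma on log2 width called neither HSPA5 (log2 ratio -0.10, SE 0.06, adjusted p = 0.316) nor HSP90AA1 (log2 ratio -0.09, SE 0.06, adjusted p = 0.354). It called 0 of 10 members, against 1.91% of all genes lower and 0 higher at an adjusted p of at most 0.05. With the replicate number as a block limma again called 0 members, against 0.942% of all genes lower and 0 higher.

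**Figure D3:**
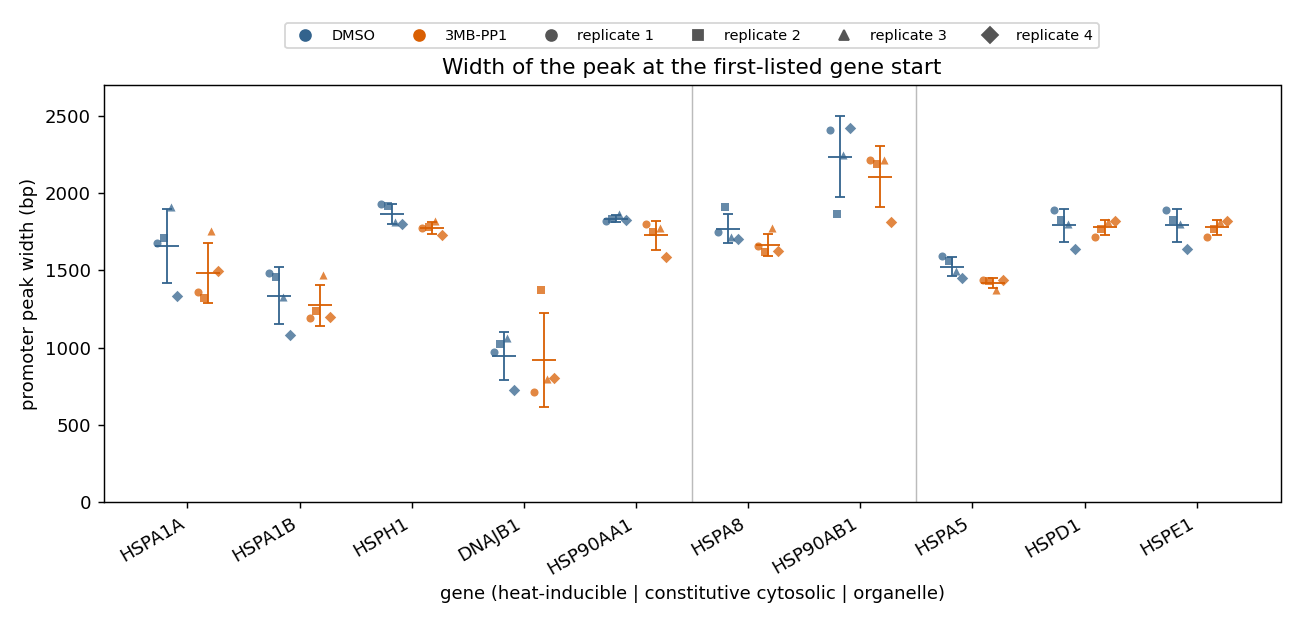
Width in bp of the peak at the first-listed start of each gene in the 4 DMSO (blue) and 4 3MB-PP1 (orange) lists, with marker shapes for replicates and bars for mean ± SD. The groups separate for HSPA5 and HSP90AA1 and overlap for the other 8 genes.

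The remaining widths overlapped between the groups. HSPH1, the Hsp110 nucleotide exchange factor of Hsp70, measured 1928, 1915, 1811 and 1803 bp in DMSO and 1777, 1780, 1821 and 1726 bp in 3MB-PP1 (exact permutation p = 0.0857). Only 3MB-PP1 replicate 3 overlapped the control range. HSPA8, the constitutive cytosolic Hsc70, measured 1769 ± 94.3 and 1667 ± 71.2 bp (SD, n = 4 each, exact permutation p = 0.143). HSP90AB1, the constitutive Hsp90 beta, had the widest peaks of the set at 2236 ± 261 and 2106 ± 197 bp (exact permutation p = 0.429). HSPD1 and HSPE1, the mitochondrial chaperonin Hsp60 and its partner Hsp10, shared a peak of 1791 ± 107 and 1778 ± 48.2 bp (exact permutation p = 0.829).

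Rank among promoter peaks, a measure added after seeing the data, separated the groups only at DNAJB1, the J-domain co-chaperone known as Hsp40. At its first start, 289 bp from TECR, the peak stood at percentiles 91.4, 86.9, 91.1 and 86.6 in DMSO replicates 1 to 4 and at 93.7, 94.3, 95.3 and 91.9 in 3MB-PP1 replicates 1 to 4. All 4 treated values lay above all 4 control values, with 91.9 and 91.4 the nearest pair. The means were 89.0 ± 2.62 and 93.8 ± 1.41 (SD, n = 4 each), a difference of 4.76 points (exact permutation p = 0.0286, adjusted p = 0.249). It was 3.18 points over replicates 1 and 3 and 6.34 over replicates 2 and 4, higher in 4 of 4 pairs, and the exact p with the replicate block was 0.125. Of all 9132 genes, 4.61% ranked higher in 3MB-PP1 without overlap and 6.84% lower. DNAJB1 was the only member of the 10 called by this measure. That count is near the share of all genes called and is not read as a trait of DNAJB1.

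The raw pileup of that DNAJB1 peak was 99.9, 80.1, 121 and 60.7 in DMSO and 63.1, 62.2, 74.6 and 48.0 in 3MB-PP1. These values are not comparable between lists, because their scaling is not given in the sources used here. Apart from the list medians above, pileup served only for ranks within a list. Its width was 974, 1021, 1065 and 724 bp in DMSO and 711, 1375, 796 and 804 bp in 3MB-PP1, with overlapping groups (exact permutation p = 0.971). At the second DNAJB1 start, where the heat shock elements lie, the rank was 73.0 ± 2.79 in DMSO and 76 ± 5.08 in 3MB-PP1 (SD, n = 4 each, exact permutation p = 0.457). The difference there was 6.75 points over replicates 1 and 3 and -0.700 over replicates 2 and 4. The width at that start was 1408 ± 176 and 1358 ± 42.5 bp (exact permutation p = 0.686).

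The other ranks overlapped between the groups. HSPA8 stood at 95.7 ± 0.730 in DMSO and 94.2 ± 1.39 in 3MB-PP1 (SD, n = 4 each, exact permutation p = 0.114), and HSP90AA1 at 95.8 ± 0.458 and 94.4 ± 1.23 (exact permutation p = 0.143). HSPA8 was lower in 4 of 4 same-numbered pairs, so that with the replicate block 3 members moved 1 way in every pair: HSPA5 and HSPA8 lower, as in 16.3% of all genes, and DNAJB1 higher, as in 15.0%. HSPH1 stood at 76.2 ± 2.67 and 72.9 ± 3.13 (exact permutation p = 0.200), and HSPD1 and HSPE1 at 86.5 ± 3.84 and 85.5 ± 3.23 (exact permutation p = 0.743). HSP90AB1 stood at 48.3 ± 4.49 and 46.3 ± 8.08 (exact permutation p = 0.743).

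The order of the DMSO ranks, highest first, was HSPA1B, HSP90AA1, HSPA8, DNAJB1, the shared HSPD1 and HSPE1 peak, HSPA5, HSPH1, HSP90AB1 and HSPA1A. The first 3 overlapped in range and were not distinguishable. DNAJB1 overlapped HSPD1, and HSPD1 overlapped HSPA5. HSPH1 (73.3 to 79.6), HSP90AB1 (43.2 to 52.1) and HSPA1A (25.9 to 31.1) each lay clear of their neighbours. HSP90AB1 had the widest peak and one of the lowest ranks, and DNAJB1 had the narrowest peak and a high one: their mean DMSO widths were at percentiles 89.6 and 11.7 of the same genes.

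**Figure D4:**
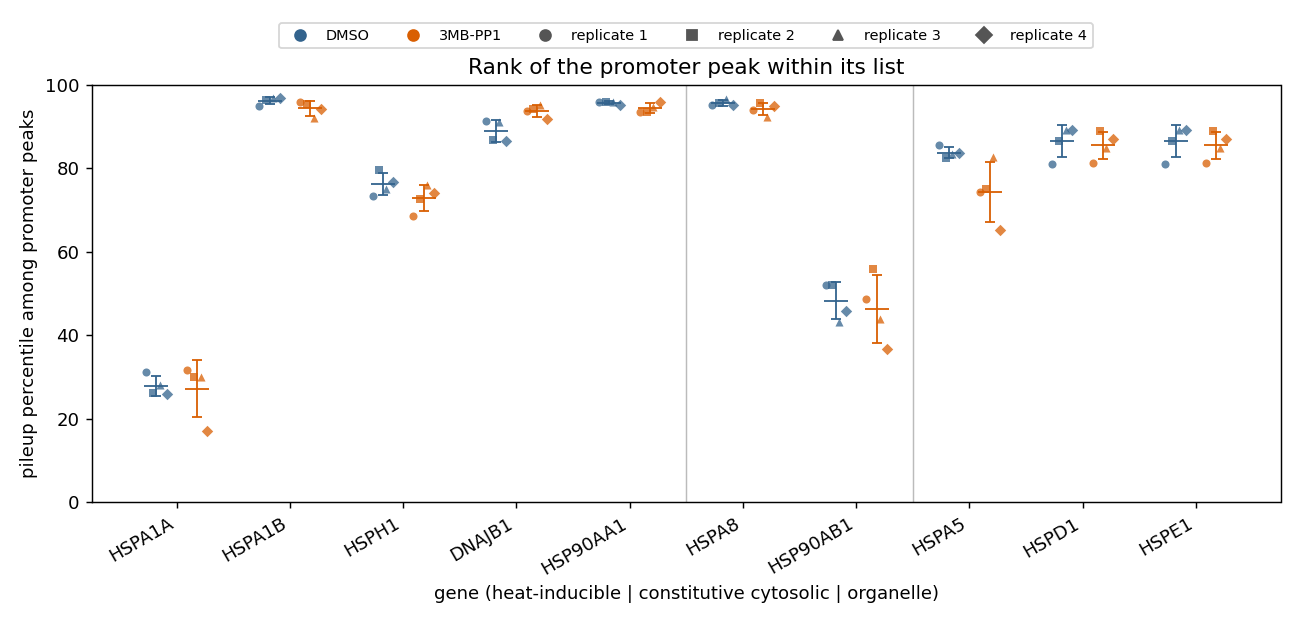
Percentile of the pileup of each gene's promoter peak among the promoter peaks of the 9132 genes with one in all 8 lists, for the 4 DMSO (blue) and 4 3MB-PP1 (orange) lists, with bars for mean ± SD. HSPA1B sits near the top in both groups and HSPA1A between 17.0 and 31.7, and DNAJB1 is the gene whose treated lists all lie above its control lists.

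Ranks were also taken by the best peak within 5 kb of each gene, among all peaks of lists reduced to the length of the shortest, 150577 peaks. Here 1 of 10 members separated the groups, DNAJB1, at 99.2 ± 0.206 in DMSO and 99.5 ± 0.108 in 3MB-PP1 (SD, n = 4 each, exact permutation p = 0.0286, adjusted p = 0.305). The difference was 0.211 points over replicates 1 and 3 and 0.462 over replicates 2 and 4. In every list the first-start DNAJB1 peak near TECR, ranked above, had a higher pileup than the second-start peak. This call therefore re-ranks the same peak and is not a second observation. Over all genes, 2.63% were higher and 6.74% lower without overlap. The DNAJB1 separation was not seen when peaks were ranked by -log10 p (difference 0.155 points, exact permutation p = 0.200). In that ranking HSPA5 (-0.724 points) and HSPA8 (-0.198 points) were lower without overlap (exact permutation p = 0.0286 for each). Of all genes, 4.90% were lower and 2.16% higher without overlap in the same ranking. With the replicate block, 4 of 10 members moved 1 way in every pair: HSPA1A, HSPA5 and HSPA8 lower, as in 20.6% of all genes, and DNAJB1 higher, as in 9.27%. Apart from HSPA1A (91.7 ± 2.43 and 88.2 ± 7.40), every member's mean was at least 97.6 in both groups. The median over all genes was 91.9 in DMSO and 90.7 in 3MB-PP1. The HSP90AB1 window also holds a peak at the SLC35B2 start, which reached a -log10 q of 21.7 against 12.3 at the HSP90AB1 start. The HSP90AB1 rank here is therefore not that of its promoter peak alone, which stood at 48.3 and 46.3 among promoter peaks.

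Covered length, the base pairs under peaks in the gene and 5 kb either side, gave no separation at any of the 10 genes. Over all 19974 genes, 6.28% were lower and 1.06% higher in 3MB-PP1 without overlap, and the smallest adjusted p was 0.389. The mean was lower in 3MB-PP1 for 9 of 10 members, with a median log2 ratio of -0.15 against -0.16 for all genes with a value in both groups. With limma the counts were 0 of 10 members and 0 of 18798 genes in either direction, with and without the replicate block. At an unadjusted p of at most 0.05, limma counted 2521 genes, and 3736 with the block. HSPA1A and HSPA8 were lower in 4 of 4 same-numbered pairs in covered length, 2 of 10 members beside 22.2% of all genes.

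**Figure D5:**
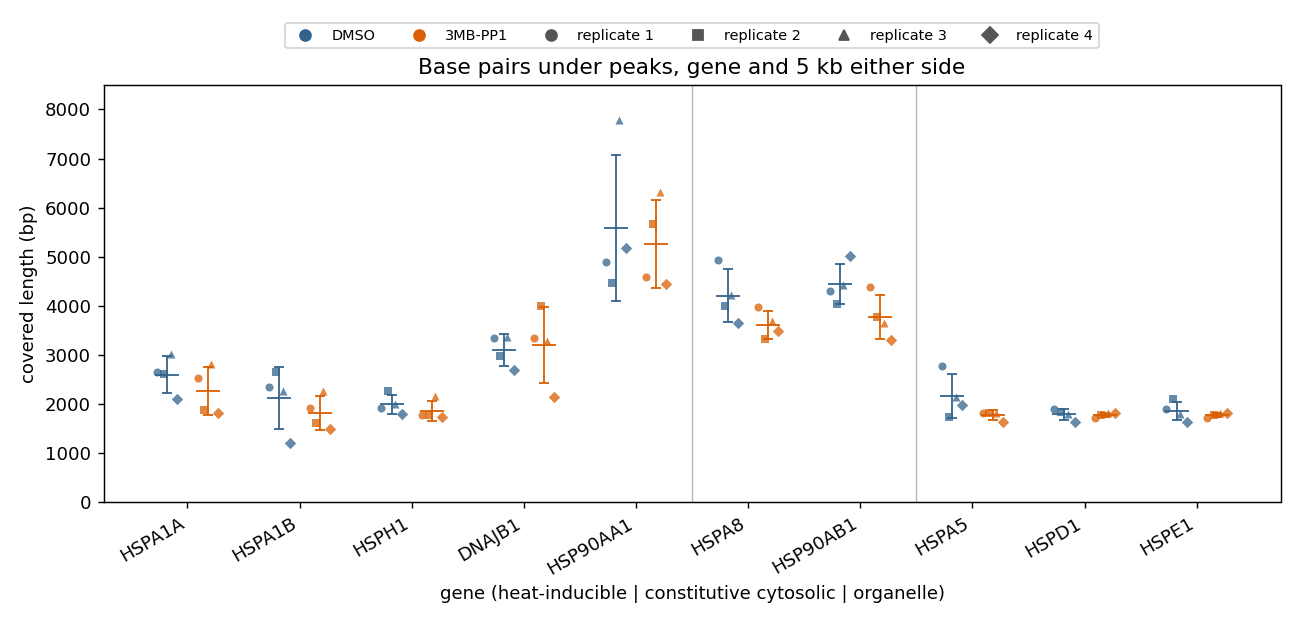
Base pairs under peaks within the gene and 5 kb either side, for the 4 DMSO (blue) and 4 3MB-PP1 (orange) lists, with bars for mean ± SD. The groups overlap for all 10 genes, and HSP90AA1, the longest gene of the set, has the widest spread.

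The cytosolic Hsp90 genes covered the most. HSP90AA1, a gene of 59008 bp, had 4900, 4468, 7777 and 5184 bp under peaks in DMSO and 4585, 5659, 6323 and 4453 bp in 3MB-PP1, from 4 to 9 peaks a list. The spread within each group exceeded the difference of the means, and without DMSO replicate 3 the difference was 404 bp in the other direction. HSP90AB1 had 4442 ± 413 bp in DMSO and 3778 ± 451 bp in 3MB-PP1 (SD, n = 4 each, exact permutation p = 0.0857), part of it a peak at the neighbouring SLC35B2 start. HSPA8 had 4931, 3996, 4226 and 3656 bp in DMSO and 3974, 3316, 3685 and 3484 bp in 3MB-PP1 (exact permutation p = 0.114). Each 3MB-PP1 value was below its same-numbered control, yet the groups overlapped.

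HSPA5 covered 2160 ± 443 bp in DMSO and 1772 ± 96.8 bp in 3MB-PP1 (SD, n = 4 each, exact permutation p = 0.114), the lowest ratio of the set at -0.29 on the log2 scale. The difference of -388 bp depended on single control lists. Without DMSO replicate 1, whose 2776 bp was the highest control value, it was -182 bp (exact permutation p = 0.200). Without DMSO replicate 2, whose 1737 bp was the lowest, it was -529 bp without overlap (exact permutation p = 0.0286). That was the only control list inside the treated range, and 9.81% of all genes were lower without overlap in that set. DNAJB1 was the member with a higher mean, 3098 ± 324 and 3196 ± 771 bp (exact permutation p = 0.886), and its direction turned with the threshold: at a -log10 q of at least 2 the difference was -336 bp. HSPA1A had 2600 ± 376 and 2261 ± 494 bp, HSPA1B 2122 ± 635 and 1816 ± 346 bp, and HSPH1 1996 ± 191 and 1860 ± 200 bp. HSPD1 covered 1791 ± 107 and 1778 ± 48.2 bp, wholly its promoter peak, and HSPE1 1858 ± 190 and 1778 ± 48.2 bp, with 1 further peak in DMSO replicate 2.

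Merging the 8 lists gave 49 regions in the members' windows. Of these, 16 (32.7%) were called in all 8 lists, against 6.23% of 588244 regions over the chromosomes analysed. In a single list there were 17 (34.7%), against 51.9%. The whole set was not limited to gene windows, and the windows of other genes were not compared. None of the 49 was called in all 4 lists of 1 treatment and none of the other. In the whole set 703 regions showed that pattern for DMSO and 872 for 3MB-PP1. All 11 regions over a member start were in all 8 lists. Of the other 38, 5 were in all 8 lists, 16 in 2 to 7 lists and 17 in 1.

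Away from the starts the peaks were weak. Only 2 of those 38 regions reached a -log10 q of 5 in any list. One, chr6:44255958-44258545 beyond HSP90AB1, covers the start of SLC35B2, a nucleotide sugar transporter gene, and reached 21.7. The other, chr9:125233549-125234346 beyond the end of HSPA5, was in 4 DMSO and 3 3MB-PP1 lists and reached 6.35. In all 8 lists but below 5 were chr6:31821291-31822502 between HSPA1A and HSPA1B, chr6:31834048-31835820 over the SNHG32 start, chr11:123053161-123056341 beyond the end of HSPA8, and chr14:102116443-102117932 inside HSP90AA1 between its listed starts. The last of these reached a -log10 q of 2.33.

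The heat-inducible genes (HSPA1A, HSPA1B, HSPH1, DNAJB1 and HSP90AA1) and the other 5 were set side by side, with classes from general knowledge and no test. The median log2 ratio of promoter peak width was -0.07 for the inducible genes and -0.09 for the constitutive and organelle genes, with 1 gene lower without overlap in each, HSP90AA1 and HSPA5. The median difference in promoter peak rank was -1.38 and -1.42 points, ranging from -3.29 to 4.76 and from -9.38 to -0.96. The single call among the inducible genes was DNAJB1 and there was none among the others. The calls at HSP90AA1 and DNAJB1 are both at first-listed starts without a heat shock element in the window searched, and the groups overlapped at their second starts, which hold one. For covered length the medians were -0.10 and -0.22 on the log2 scale, with 0 calls in each class. Both extremes of rank, HSPA1B and HSPA1A, were inducible genes. Each class has 5 genes, of which HSPD1 and HSPE1 share a peak, and a difference between the classes was not tested.

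A further 47 genes of the heat shock response and the chaperone network were listed: HSF1, HSF2 and HSBP1, other Hsp70, Hsp90 and small heat shock protein genes, J-domain and BAG co-chaperones, Hsp90 co-chaperones, ubiquitin genes and the chaperonin subunits CCT2 to CCT8 with TCP1 among them. Of the 47, 3 had a covered length lower in 3MB-PP1 without overlap and 0 a higher one, beside 6.28% and 1.06% of all genes, and the median log2 ratio was -0.15. The 3 were CCT6A, a subunit of the cytosolic chaperonin, at 2488 ± 161 and 1677 ± 355 bp, AHSA1, an activator of the Hsp90 ATPase, at 2064 ± 85.4 and 1558 ± 168 bp, and DNAJB4, a J-domain protein, at 3081 ± 455 and 2343 ± 248 bp (SD, n = 4 per group). None of them passed after adjustment over all genes. Of the 38 with a listed start, 36 had a promoter peak in all 8 lists, against 57.8% of all genes with a listed start. Among the 36, 1 had a narrower peak in 3MB-PP1 without overlap and 0 a wider one. These width counts stand beside 14.0% and 0.0986% of all genes. The narrower peak was that of BAG3, a co-chaperone of Hsp70, named after its value was seen.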

How the data were processed

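The 8 peak lists were used as the authors deposited them, 1 per library, so peaks had been called per library. MACS2, DESeq2 and hg38 are named in the submitters' processing notes, without versions or roles. The aligner, read filters, Tn5 shift, handling of multiply matching reads and control are not given in the sources used here, and could change peak number and width. The lists have no header. Their column order, read from the values, gives each peak's position and length, the deposited pileup (a coverage signal of unstated scaling), the deposited -log10 p and -log10 q against background in the same library, and the deposited fold enrichment, a ratio to that background. All peak values are thus the authors' own. Peak positions and lengths were compared between lists in bp, and the pileup of single peaks only as a rank within its list. The median pileup of each list is given as a description.

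Gene spans came from RefSeq's gene table and starts from its promoter table, both of assembly GRCh38.p14. Of 19974 protein-coding genes, 15812 had a listed start. Measures were the covered length within 5 kb, the width of the highest-pileup peak within 500 bp of the first-listed start, the pileup percentile of the best peak in lists cut to 150577 peaks by -log10 p, and the pileup percentile among promoter peaks of 9132 genes, the last added after seeing the data. Libraries were grouped by title, 4 per group. Group means were compared across all genes by a two-sided exact permutation test over 70 assignments with Benjamini-Hochberg adjustment, and a call means that the groups do not overlap. p-values measure the spread between these libraries, which the series calls biological replicates.

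Same-numbered libraries deviated together, with correlations over genes of their deviations from the group mean log2 covered length of 0.228, 0.108, 0.138 and 0.188 for replicates 1 to 4, all above 0.1, the minimum set for pairing. Some libraries of unlike number correlated as much, DMSO 3 with 3MB-PP1 1 at 0.152 and DMSO 2 with 3MB-PP1 4 at 0.121, so the pairing is not exclusive in these values. The replicate number was also used as a block (sign flips over 16 assignments, and in limma). limma was run on log2 width and on log2(covered bp + 100) for genes with a value above 0 in at least 4 lists. Other alternatives were q minimums, equal list lengths, a minimum width of 135 bp, flanks of 1 and 10 kb, start windows of 100 bp and 1 kb, any listed start, leaving out each library, and odd or even replicates.

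All 10 members are named. Of 47 further chaperone genes, those named had the largest change in covered length among genes whose groups do not overlap, and BAG3 was added after its promoter peak width was seen. The members and lists were chosen with earlier results of these data known. Covered lengths were checked against bedtools 2.31.1, with 0 of 19974 genes differing, and the test was checked on simulated data. The software was R 4.3.3 with limma 3.58.1 and Python 3.11.15 with pandas 2.3.3, numpy 2.4.6, scipy 1.17.1 and matplotlib 3.10.9.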

Additional observations from a re-analysis of the deposited data

Results flagged for a closer look

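In 11 of 80 groups of 4 libraries, a member's highest or lowest library stood apart from the other 3, with a gap to the nearest that exceeded Dixon's critical value as a share of the group's range. Chance alone flags about 1 group in 20, and the groups are not independent, since the measures share peaks. Of the covered lengths, HSPA5 in 3MB-PP1 replicate 4 was 1627 bp (others 1815 to 1825 bp), and HSPH1 in 3MB-PP1 replicate 3 was 2158 bp (others 1726 to 1780 bp).

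Of the promoter peak widths, HSPA1B in 3MB-PP1 replicate 3 was 1472 bp (others 1193 to 1237 bp), and HSPA5 in 3MB-PP1 replicate 3 was 1372 bp (others 1429 to 1440 bp). HSP90AB1 in 3MB-PP1 replicate 4 was 1811 bp (others 2185 to 2217 bp). DNAJB1 in 3MB-PP1 replicate 2 was 1375 bp (others 711 to 804 bp).

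Of the pileup percentiles in lists of equal length, HSPA1A in 3MB-PP1 replicate 4 was 77.2 (others 90.6 to 93.0), and HSP90AA1 in DMSO replicate 4 was 99.6 (others 99.7). Among promoter peaks, HSPA1A in 3MB-PP1 replicate 4 was 17.0 (others 30.0 to 31.7), HSPA1B in DMSO replicate 1 was 94.9 (others 96.5 to 96.8), and HSP90AA1 in DMSO replicate 4 was 95.1 (others 96.0).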

How the results depend on the processing

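The lists hold calls without read totals, so depth limits every width and presence, and small differences in rank were not resolvable with 4 libraries a group. The count of members with a promoter peak in all 8 lists was 8 to 10 under every alternative run. For covered length, 0 members separated in the reported setting. The count was 2 with a flank of 10 kb (HSP90AB1 and HSPD1), 2 with the replicate block, 3 in odd-numbered and 4 in even-numbered replicates, and 0 to 2 when each library was left out. It was 2 without DMSO replicate 4, and 1 without DMSO replicate 2, 3MB-PP1 replicate 1 or 3MB-PP1 replicate 3. For width, reported as 2, the count was 0 in limma with or without the replicate block, 4 in odd-numbered and 4 in even-numbered replicates, and 2 to 4 with a library left out, 4 being without 3MB-PP1 replicate 3. For rank in equal lists, reported as 1, it was 2 by -log10 p, 0 in full lists, 4 with the replicate block, 6 in odd-numbered and 4 in even-numbered replicates, and 1 to 3 with a library left out, 3 being without 3MB-PP1 replicate 3. It was 2 there without DMSO replicate 1, 2 or 4 or without 3MB-PP1 replicate 2 or 4. For rank among promoter peaks, reported as 1, it was 3 with the replicate block, 4 in odd-numbered and 4 in even-numbered replicates, and 1 to 2 with a library left out. It was 2 there without DMSO replicate 1 or 2 or without 3MB-PP1 replicate 2, 3 or 4. With 2 libraries a group, 30.3% (odd) and 32.4% (even) of all genes separate toward lower covered length, and 50.4% and 42.7% toward lower width. For rank in equal lists 30.1% and 25.3% separate toward lower and 18.7% and 13.6% toward higher rank, and among promoter peaks 27.1% and 23.3% toward lower and 23.5% and 19.8% toward higher. More of all genes separated with a library left out than in the reported setting, in either direction and in every measure. Toward lower width the share was 16.2% to 28.6%, and 21.1% without 3MB-PP1 replicate 3. Toward lower covered length it was at least 6.90%. The flank of 10 kb gave 6.17%, beside 6.28% in the reported setting. In equal lists without 3MB-PP1 replicate 3, 9.29% separated toward lower and 3.91% toward higher rank. The replicate block changed no other count. For width with the block it stayed at 2 of 10 members, while 35.2% of all genes were lower and 0.690% higher in every pair. A call needs every treated library to lie beyond every control, so sets with fewer libraries can only gain calls by this rule. With the replicate block, every gene called without overlap is also called. No cause of the other shifts was tested.

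The replicate block and the odd or even replicates cannot reach p = 0.05 (smallest exact p 0.125 and 0.333), so only directions are read from them. Under the other alternatives, 406 values of single members kept direction and side of the threshold, 22 were weaker, 11 stronger and 29 reversed. No reversal was in a gene called in the same measure, but groups without overlap cannot reverse when a library is left out. Where tested, member widths did not change with the q minimums, list lengths, minimum width or choice of start, because the same peak was measured. HSPD1 and HSPE1 also share their promoter peak. The 406 are therefore not independent results. With a library left out, the exact permutation p was at most 0.0571 for HSPA5 width, 0.0857 for HSP90AA1 width and DNAJB1 rank among promoter peaks, and 0.114 for DNAJB1 rank in equal lists. For DNAJB1 the difference in covered length (3MB-PP1 minus DMSO) was -73.8 bp at a -log10 q of at least 5, -336 bp at 2, -483 bp with a flank of 10 kb, -44 bp in odd-numbered replicates and -171 to 448 bp with a library left out. In odd-numbered replicates HSPH1 covered length reversed to 5 bp. In even-numbered replicates HSP90AA1 covered length reversed to 230 bp, HSPD1 covered length and the shared HSPD1 and HSPE1 width to 59.5 bp, and DNAJB1 width to 217 bp. With a library left out, HSP90AA1 covered length ranged from -699 to 404 bp, HSPD1 covered length and the HSPD1 and HSPE1 width from -63.3 to 20.7 bp, and DNAJB1 width from -176 to 45.7 bp. Rank in equal lists reversed for HSPA1A to 0.0907 points by -log10 p, for HSP90AB1 to 0.225 and for HSPD1 and HSPE1 to 0.0884 in full lists, and for HSP90AB1 to 0.0188 in even-numbered replicates. It ranged from -5.09 to 0.178 for HSPA1A and from -0.243 to 0.00213 for HSPD1 and HSPE1 with a library left out. Rank among promoter peaks reversed for HSPA1A to 1.23 in odd-numbered replicates and for HSPD1 and HSPE1 to 0.0137 in even-numbered ones. With a library left out it ranged from -2.14 to 2.76 for HSPA1A, from -5.27 to 1.13 for HSP90AB1 and from -2.78 to 0.455 for HSPD1 and HSPE1. The cause was not tested.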
